A study of Mus musculus with 18 samples.

Results

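The genes described here are 10 CC chemokine genes of the mouse, Ccl2, Ccl3, Ccl4, Ccl5, Ccl6, Ccl7, Ccl9, Ccl12, Ccl22 and Ccl24. They were chosen by symbol, as 10 of the 21441 genes in each of 2 tables of RNA-seq values, the first from RAW264.7 macrophages and the second from liver, and all 10 symbols were found in both. Values are FPKM, fragments per kilobase of transcript scaled to sequencing depth, so that levels of different genes can be compared per length. Of the 10 genes, 9 had a mean FPKM above 1 over the 9 libraries of a table and were tested: Ccl24 stayed below in macrophages and Ccl22 in liver.

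Each table holds 3 control, 3 LPS and 3 LPS+MIC-1 libraries, and the study asked how MIC-1 alters the response to LPS. LPS is the lipopolysaccharide of Gram-negative bacteria, and MIC-1 is moringa isothiocyanate-1, an isothiocyanate from the seeds of Moringa oleifera. The liver libraries are from wild type male C57BL/6 mice in groups of 6, of which 3 livers per group were sequenced. Control mice had vehicle and saline, LPS mice had 10 mg/kg LPS injected into the abdominal cavity, and LPS+MIC-1 mice had 80 mg/kg MIC-1 by gavage for 3 days before the same LPS dose. All livers were taken at 16 h, and the age of the mice is not given in the sources used here. RAW264.7 is a macrophage-like line from a virus-induced mouse tumour, so these cultures stand for that line and not for tissue macrophages. Its LPS+MIC-1 cultures had 10 µM MIC-1 by the series' design, while their sample labels carry the strain and doses of the mice. The LPS concentration and the time in culture are not given in the sources used here, and no library of MIC-1 without LPS was analysed here.

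Chemokines are small secreted proteins that direct the movement of leukocytes through G protein-coupled receptors, and the CC family is named for a pair of adjacent cysteines. Macrophages that sense LPS through Toll-like receptor 4 activate NF-κB and interferon regulatory factors, and many CC chemokine genes are known targets of these factors. Ccl2, Ccl7 and Ccl12 are ligands of the monocyte receptor Ccr2. Ccl3, Ccl4 and Ccl5 attract monocytes and T cells, and Ccl3 and Ccl5 are ligands of Ccr1. Ccl6 and Ccl9 are rodent ligands of Ccr1, Ccl22 attracts T cells through Ccr4, and Ccl24 is an eotaxin, which attracts eosinophils through Ccr3. In the liver, Kupffer cells and recruited monocytes are known sources of several of them.

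Of the 10 genes, 8 lie in 2 groups on chromosome 11 (mm9, GENCODE annotation). The first group spans 67.8 kb and holds Ccl2 (81849073 to 81850955), Ccl7 (81859214 to 81861027) and Ccl12 (81915347 to 81916902), all on the plus strand. The second, 1420 kb further on, spans 139 kb and holds Ccl5 (83339280 to 83344020), Ccl9 (83386421 to 83392138), Ccl6 (83401384 to 83406589) and Ccl3 (83461346 to 83462857) on the minus strand, then Ccl4 (83476086 to 83478185) on the plus strand. Ccl22 lies on chromosome 8 (97269490 to 97275599, plus strand) and Ccl24 on chromosome 5 (136045807 to 136048913, minus strand). Of the stretches of 31 bases in their coding transcripts, none occurred in another gene for 9 of the 10 genes, and 3.16% did for Ccl9.

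Promoter sequences from RefSeq (GRCm38.p6), 250 bases before to 50 bases after the start, were at hand for 5 of the 10 genes, Ccl3, Ccl6, Ccl9, Ccl12 and Ccl22. They are shown for Ccl3 and Ccl22, which had the largest differences with LPS in macrophages among these 5 genes. They are also shown for the neighbours Ccl9 and Ccl6, which had the most similar promoters of the 5 (164 of 300 bases identical, 54.7%, against 46.7 to 53.3% for the other pairs). Capitals mark matches to motifs, and each sequence runs 5′ to 3′ on the strand of its gene.
Ccl3 promoter, chr11:83649329-83649628, minus strand: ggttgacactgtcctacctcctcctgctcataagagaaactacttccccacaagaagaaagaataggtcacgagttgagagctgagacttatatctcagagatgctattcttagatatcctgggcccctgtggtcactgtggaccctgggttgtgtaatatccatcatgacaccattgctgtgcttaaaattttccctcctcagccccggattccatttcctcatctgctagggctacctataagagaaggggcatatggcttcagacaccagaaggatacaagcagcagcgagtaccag
Ccl22 promoter, chr8:94745434-94745733, plus strand: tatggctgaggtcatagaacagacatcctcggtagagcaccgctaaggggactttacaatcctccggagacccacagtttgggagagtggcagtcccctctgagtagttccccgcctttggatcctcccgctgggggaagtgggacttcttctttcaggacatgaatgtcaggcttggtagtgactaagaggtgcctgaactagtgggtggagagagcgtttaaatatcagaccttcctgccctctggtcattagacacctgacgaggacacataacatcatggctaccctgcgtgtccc
Ccl9 promoter, chr11:83578587-83578886, minus strand: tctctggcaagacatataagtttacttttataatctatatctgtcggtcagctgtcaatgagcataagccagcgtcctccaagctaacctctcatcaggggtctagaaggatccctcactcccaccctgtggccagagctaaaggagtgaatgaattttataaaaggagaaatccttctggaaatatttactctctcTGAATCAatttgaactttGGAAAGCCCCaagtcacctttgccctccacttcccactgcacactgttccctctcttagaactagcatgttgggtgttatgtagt
Ccl6 promoter, chr11:83593038-83593337, minus strand: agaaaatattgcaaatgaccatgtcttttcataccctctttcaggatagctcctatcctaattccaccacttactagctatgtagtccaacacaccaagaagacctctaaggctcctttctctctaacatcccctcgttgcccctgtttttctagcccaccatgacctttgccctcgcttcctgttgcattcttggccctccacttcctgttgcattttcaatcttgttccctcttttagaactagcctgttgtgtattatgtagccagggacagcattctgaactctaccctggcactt
The windows were searched on both strands for the kappaB consensus, for the AP-1 site TGANTCA and for an interferon regulatory factor motif (GAAA and GAAA with any 2 bases between them). Of the 5 promoters only that of Ccl9 had a match, to kappaB at position -35 from the start (on the minus strand of the gene) and to AP-1 at -53, and the 2 matches did not overlap. Over the 32851 promoters of the table, 8.46% held a kappaB match, 7.81% an AP-1 match and 3.44% a match to the interferon regulatory factor motif. These matches are letters in a window and nothing was measured at them.

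Since column names give a treatment without a number, the 3 libraries of each treatment are called 1, 2 and 3 in column order. The macrophage library labelled LPS library 2 stood apart from the other LPS libraries. It differed from control library 2 by a median of 0.0732 on the log2 scale over the 9905 genes with a mean FPKM above 1. From LPS libraries 1 and 3 it differed by 0.695 and 0.696. Libraries 1 and 3 of each macrophage treatment were close, with medians of 0.0671 (control), 0.0913 (LPS) and 0.0702 (LPS+MIC-1). Over genes with an estimated 500 to 2000 reads, their squared differences were 1.56 to 2.16 times the sampling variance. They were kept as separate samples, though this spread does not show whether they came from separate cultures. For LPS library 2 and control library 2 the squared differences were 2.04 times the sampling variance, over 1178 genes. Library 2 also stood apart from libraries 1 and 3, though by less, in the control (0.155 and 0.163) and LPS+MIC-1 macrophages (0.198 and 0.203). The study's own macrophage analysis used 8 libraries with 2 of LPS. Values are therefore given for all 9 libraries and again for the 8 without LPS library 2, where the LPS group is the close pair of libraries 1 and 3. In liver, libraries 2 of LPS and of LPS+MIC-1 stood apart from libraries 1 and 3 of their group, by medians of 0.529 and 0.552 and of 0.350 and 0.351, and control library 1 stood apart from controls 2 and 3 by 0.427 and 0.477. The remaining pairs of these groups differed by 0.162, 0.112 and 0.196. Liver LPS library 2 was nearer to LPS+MIC-1 libraries 1, 2 and 3 (0.436, 0.313 and 0.445) than to the other LPS livers. Liver LPS+MIC-1 library 2 was likewise nearest to LPS library 2 (0.313). Depth was estimated from the steps of low values at 17.4 to 22.4 M reads per macrophage library, 4.41 to 10.2 M per control liver and 11.6 to 18.2 M per treated liver. Macrophage markers summed to between 11021 and 13511 FPKM in the macrophage libraries, where markers of T and NK cells, B cells and liver endothelium each summed to at most 0.64. Stellate cell and fibroblast markers reached 3.00 FPKM in the macrophage libraries (LPS library 3). Hepatocyte markers summed to between 3.40 and 16.1 FPKM in the macrophage libraries and to between 45430 and 89373 FPKM in liver.

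In macrophages the 10 genes made up 0.258 to 0.381% of all FPKM in the control libraries, 4.26 and 4.30% in LPS libraries 1 and 3, 0.390% in LPS library 2 and 2.95 to 3.79% in the LPS+MIC-1 libraries. In control cells Ccl3 was the highest of the 10 (828 ± 217 FPKM, SD, n = 3), followed by Ccl4 (400 ± 95.6), Ccl9 (292 ± 45.1), Ccl2 (138 ± 56.4) and Ccl5 (79.5 ± 28.9). The ranges of Ccl4 and Ccl9 overlapped in part, as did those of Ccl6 (3.23 ± 1.95), Ccl12 (5.81 ± 0.910) and Ccl7 (8.05 ± 5.33). Ccl22 (0.0860 ± 0.0364) and Ccl24 (0.124 ± 0.107) were the lowest. With LPS, Ccl5 and Ccl3 ranked 4th and 5th of all genes in libraries 1 and 3, and with LPS+MIC-1 Ccl3 ranked 4th in all 3 libraries and Ccl2 between 8th and 13th. In the plot of macrophage levels each library of each gene is a separate symbol.

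**Figure D1:**
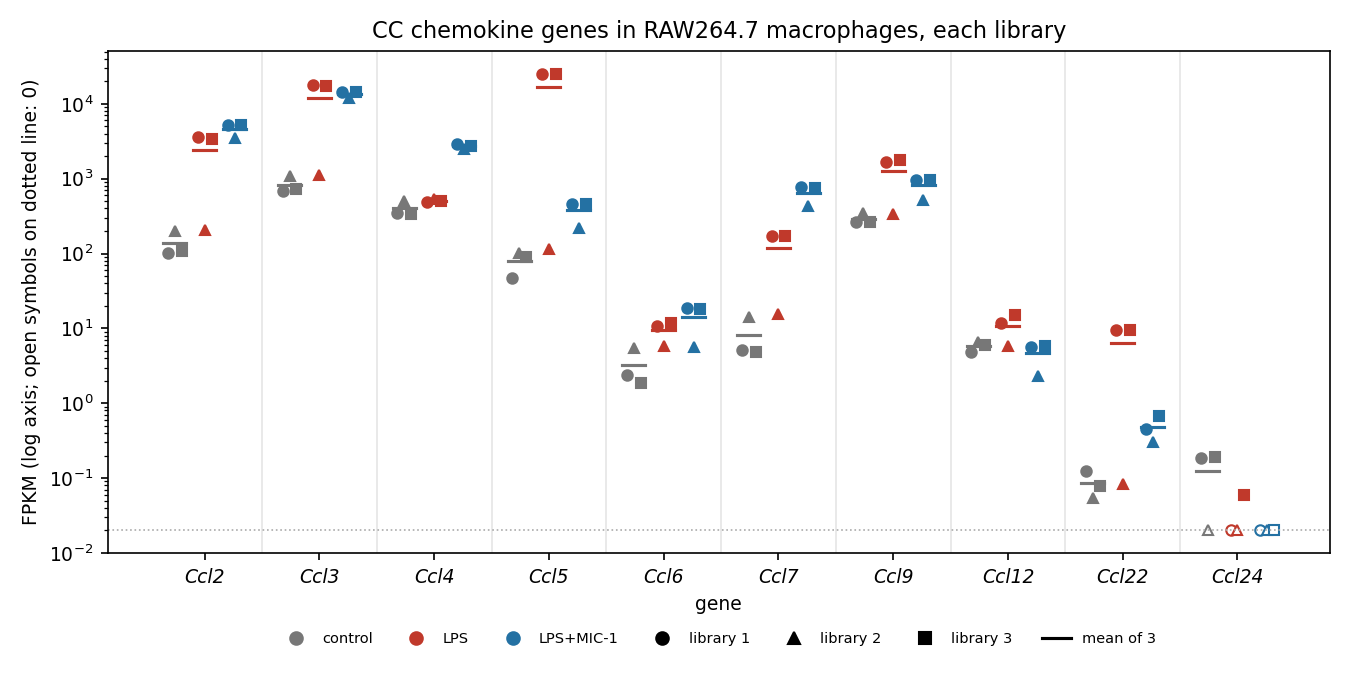
FPKM (log axis) of the 10 CC chemokine genes in the 9 macrophage libraries, with a symbol for each library and a bar for the mean of 3. LPS library 2 (red triangles) lies near the controls for Ccl5 (115 FPKM against 24673 and 25371 in the other LPS libraries), and open symbols on the dotted line are values of 0.

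A gene was called where limma with Benjamini-Hochberg adjustment over all tested genes gave an adjusted p below 0.05 and the absolute Log2FC on the log2(FPKM + 0.5) scale was above 1. On this scale the differences of genes with low FPKM come out smaller than their ratios. Between LPS and control, limma called 0 of the 9 tested chemokine genes over all 9 libraries, as it called 0 of all 9905 genes (0% higher and 0% lower, smallest adjusted p = 0.0777). At an unadjusted p below 0.05 with the same fold, 7 of the 9 and 19.2% of all genes passed. Without LPS library 2, 8 of the 9 chemokine genes rose with LPS and 0 fell, where 16.9% of all genes were called higher, 18.6% lower and 35.5% in either direction. The median Log2FC of the 9 was then 4.09, against -0.02 over all genes tested, and over all 9 libraries it was 2.73 against -0.03. Both medians are the values of Ccl22, which is counted among the 7 and the 8. Ccl22 passed the filter on mean FPKM only through LPS libraries 1 and 3. Its rise with LPS was fixed by that filter and adds nothing to these counts.

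Between LPS+MIC-1 and LPS, 2 of the 9 genes (Ccl4 and Ccl7) rose over all 9 libraries, where 8.31% of all genes were called, 4.12% higher and 4.19% lower. Without LPS library 2 the same 2 genes rose and 4 fell (Ccl5, Ccl9, Ccl12 and Ccl22), where 11.9% of all genes were called higher, 12.5% lower and 24.5% in either direction. The fall of Ccl22 was likewise fixed by the filter, which it passed only through LPS libraries 1 and 3. Between LPS+MIC-1 and control, 5 of the 9 rose over all 9 libraries (Ccl2, Ccl3, Ccl4, Ccl6 and Ccl7), against 11.8% of genes called (5.82% higher and 6.02% lower). On the 8 libraries without LPS library 2, 7 rose (Ccl5 and Ccl9 in addition), against 16.4% (7.91% higher and 8.49% lower). The 3 comparisons share their LPS or control libraries. With libraries 1 and 3 of each treatment averaged as 1 sample, limma called 0 chemokine genes and 0 genes in all in each macrophage comparison. Exact two-sided permutation tests of 3 against 3 libraries cannot give a p below 0.1, and of 2 against 3 not below 0.2, so none could pass 0.05 for a single gene. The plot of differences sets the 3 comparisons side by side.

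**Figure D2:**
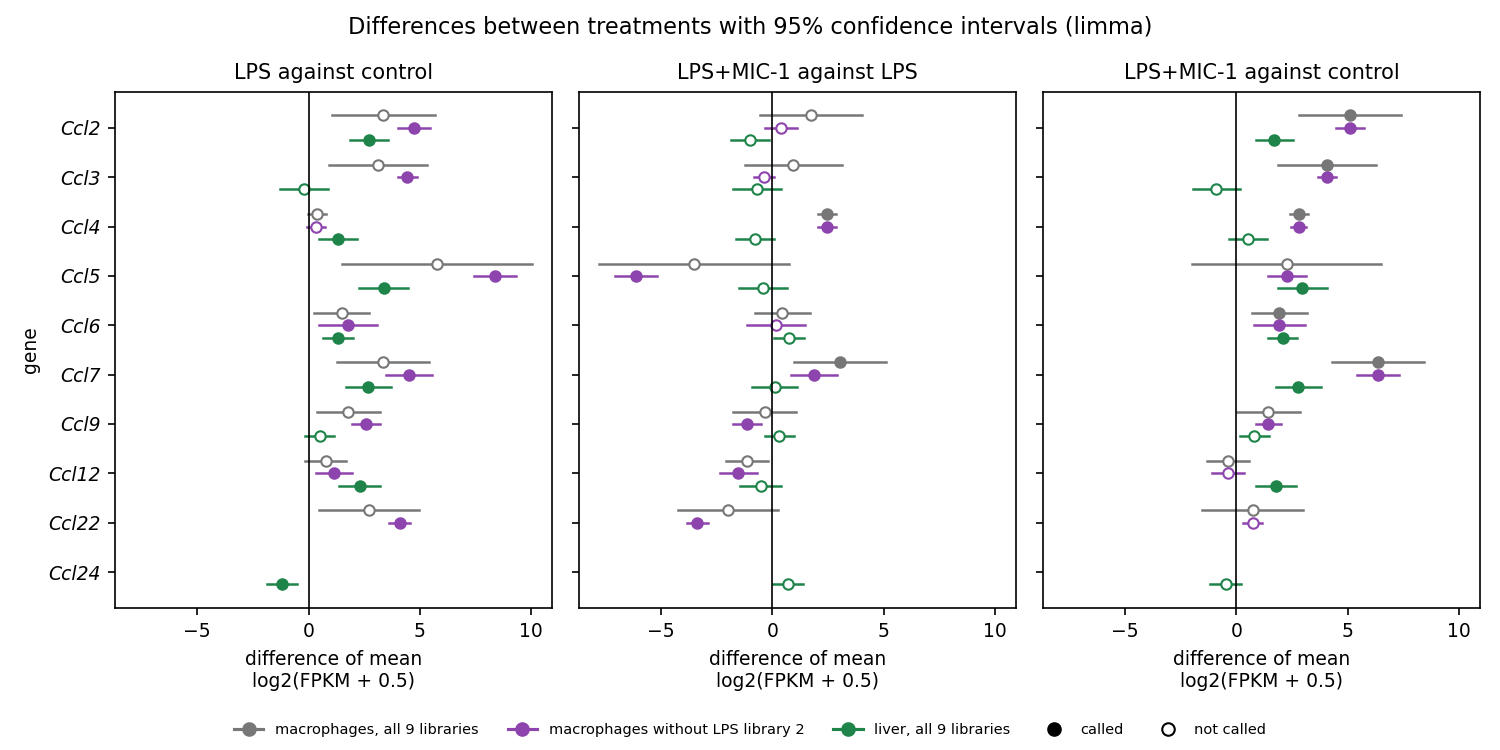
Difference of the mean log2(FPKM + 0.5) with its 95% confidence interval from limma, for each gene and comparison, in macrophages with all 9 libraries (grey), macrophages without LPS library 2 (purple) and liver (green). Filled points were called. Intervals of macrophages with all 9 libraries are wide for most genes, as for Ccl5, and that of Ccl4 is narrow.

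The FPKM had been scaled by size factors, and they summed to 1137530 and 1132900 in LPS libraries 1 and 3 of macrophages, against 557136 to 652486 in the other 7 macrophage libraries. Rescaling every library to the same sum moved the median Log2FC of all macrophage genes without LPS library 2 to -0.93 for LPS against control and 0.74 for LPS+MIC-1 against LPS. With all 9 libraries it became -0.65 and 0.44, and in liver -0.18 and -0.26. Read on that scale, the Log2FC of Ccl4 for LPS against control turned from 0.36 to -0.32 in macrophages (from 0.33 to -0.66 without LPS library 2). For LPS+MIC-1 against LPS, the Log2FC of Ccl3 turned from -0.39 to 0.42 without LPS library 2, that of Ccl9 from -0.35 to 0.15 with all 9, and that of Ccl7 in liver from 0.09 to -0.17. None of these 4 had been called. Without LPS library 2, the rescaled FPKM gave 6 higher chemokine genes with LPS (Ccl6 and Ccl12 no longer passed), and 3 higher (Ccl2 in addition) and 2 lower (Ccl5 and Ccl22) between LPS+MIC-1 and LPS. Over all genes the split of called genes then went from 1674 higher of 3515 to 528 of 5162 with LPS, and from 1181 of 2423 to 3669 of 3965 between LPS+MIC-1 and LPS. Over all 9 macrophage libraries the latter went from 408 of 823 to 762 of 890, and between LPS+MIC-1 and control from 576 of 1172 to 488 of 850. That comparison went from 783 of 1624 to 626 of 1790 without LPS library 2. In liver, the split went from 1356 of 2493 to 797 of 2648 with LPS and from 1396 of 2560 to 535 of 3119 with LPS+MIC-1. Among the chemokine genes of liver, Ccl4 was then lost with LPS, and with LPS+MIC-1 Ccl2 was lost and Ccl3 was called lower (-1.52).

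Ccl2 and Ccl7, the neighbouring genes of monocyte attractants, had their highest levels with LPS+MIC-1. Ccl2, also known as MCP-1, was at 101, 203 and 110 FPKM in control libraries 1, 2 and 3, at 3590, 204 and 3398 with LPS, then at 5161, 3447 and 5158 with LPS+MIC-1. Every LPS library was above every control, LPS library 2 by little, and the LPS+MIC-1 libraries overlapped the LPS libraries. The Log2FC of Ccl2 with LPS was 3.37 (SE 1.00, adjusted p = 0.0777, limma) over all 9 libraries and 4.73 (SE 0.31, adjusted p = 6.52e-06, limma) without LPS library 2, a ratio of means of 25.3. Ccl2 rose by 5.10 (SE 1.00, adjusted p = 0.00998, limma) between control and LPS+MIC-1. Its Log2FC of 1.73 between LPS+MIC-1 and LPS was not past the threshold (95% interval -0.56 to 4.03), nor was the 0.37 without LPS library 2 (-0.34 to 1.08), although the latter became a call with libraries rescaled to the same sum (1.17, adjusted p = 0.00578, limma).

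Ccl7, also known as MCP-3, was at 5.12, 14.2 and 4.82 FPKM in the controls, 171, 15.3 and 174 with LPS, then 771, 429 and 750 with LPS+MIC-1. No LPS+MIC-1 library overlapped an LPS library. Ccl7 rose with LPS+MIC-1 against LPS by a Log2FC of 3.01 (SE 0.90, adjusted p = 0.0475, limma) over all 9 libraries and of 1.86 (SE 0.45, adjusted p = 0.00718, limma) without LPS library 2. Over all 9 libraries the call did not survive the removal of any of the other 8 (Log2FC 2.86 to 3.59). Against control, Ccl7 had the largest ratio of means of the 10 genes with LPS+MIC-1, 80.8 (Log2FC 6.37, SE 0.90, adjusted p = 0.00289, limma). Its Log2FC with LPS alone was 3.36 over all 9 libraries and 4.51 (SE 0.45, adjusted p = 5.29e-05, limma) without LPS library 2.

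Ccl12, or MCP-5, the third gene of this group on chromosome 11, had small differences in macrophages. It was at 4.81, 6.58 and 6.06 FPKM in the controls, 11.9, 5.83 and 14.9 with LPS, then 5.67, 2.29 and 5.90 with LPS+MIC-1. Only LPS libraries 1 and 3 stood above the rest. On the other 8 libraries, Ccl12 rose with LPS by 1.14 (SE 0.35, adjusted p = 0.0178, limma) and fell by 1.53 (SE 0.35, adjusted p = 0.00543, limma) between LPS and LPS+MIC-1, whereas over all 9 libraries the Log2FC of 0.77 and -1.15 did not pass. The first of these calls was lost without control library 1 (1.02) or LPS library 3 (0.99). So Ccl2, Ccl7 and Ccl12, which lie within 67.8 kb and share the receptor Ccr2, had Log2FC of 0.37, 1.86 and -1.53 between LPS+MIC-1 and LPS on the same 8 libraries.

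Ccl5, or RANTES, showed the largest Log2FC of the 10 genes with LPS. It was at 46.7, 101 and 90.4 FPKM in control libraries, at 24673, 115 and 25371 with LPS, then at 464, 219 and 461 with LPS+MIC-1. LPS libraries 1 and 3 were far above all others, and LPS library 2 lay just above the highest control. Without LPS library 2, Ccl5 rose with LPS by a Log2FC of 8.36 (SE 0.41, adjusted p = 2.27e-06, limma), which is 315 times the control mean. It fell by 6.11 (SE 0.41, adjusted p = 1.20e-05, limma) between LPS and LPS+MIC-1, to 0.0152 of the LPS mean, and still rose against control by 2.25 (SE 0.37, adjusted p = 0.00120, limma). Over all 9 libraries these values were 5.78 (SE 1.85, adjusted p = 0.0777), -3.53 (adjusted p = 0.199) and 2.25 (adjusted p = 0.403, limma), and none passed.

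Ccl3 and Ccl4, the macrophage inflammatory proteins 1α and 1β, lie 13.2 kb apart. Ccl3 was at 675, 1076 and 733 FPKM in the controls, 17876, 1124 and 17425 with LPS, then 14316, 12146 and 14197 with LPS+MIC-1. Ccl4 was at 353, 510 and 338 FPKM in the controls, 492, 529 and 496 with LPS, then 2938, 2515 and 2729 with LPS+MIC-1. For Ccl4, all LPS libraries including library 2 lay at the upper end of the controls, and all LPS+MIC-1 libraries were far above. Ccl4 rose with LPS+MIC-1 against LPS by 2.43 (SE 0.18, adjusted p = 0.000486, limma) over all 9 libraries and by 2.46 (SE 0.17, adjusted p = 1.38e-05, limma) without LPS library 2, a ratio of means of 5.39 and 5.52. Its Log2FC with LPS alone was 0.36 (95% interval -0.04 to 0.77). Ccl3 had a Log2FC with LPS of 3.12 (SE 0.95) over all 9 libraries and rose by 4.44 (SE 0.19, adjusted p = 1.40e-06, limma) without LPS library 2. For LPS+MIC-1 against LPS, Ccl3 had 0.94 (-1.25 to 3.13) over all 9 and -0.39 (-0.82 to 0.05) without LPS library 2, and neither passed. Against control, Ccl3 rose by 4.06 (SE 0.95, adjusted p = 0.0194, limma) with LPS+MIC-1 over all 9 libraries, a call that was lost without control library 1 or 3 or any of the LPS+MIC-1 libraries (Log2FC 3.93 to 4.14).

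Ccl6 and Ccl9, adjacent genes 9.24 kb apart, differed in level. Ccl9 was at 264.67, 344 and 267 FPKM in the controls, 1672, 333 and 1791 with LPS, then 968, 512 and 971 with LPS+MIC-1. Ccl6 was at 2.39, 5.46 and 1.85 FPKM in the controls, 10.7, 5.81 and 11.9 with LPS, then 19.0, 5.69 and 18.0 with LPS+MIC-1. In both genes LPS+MIC-1 library 2 was below libraries 1 and 3, for Ccl6 at the level of LPS library 2. With LPS library 2 left out, Ccl9 rose with LPS by 2.58 (SE 0.27, adjusted p = 7.43e-05, limma) and fell by 1.14 (SE 0.27, adjusted p = 0.00701, limma) between LPS and LPS+MIC-1, and this second call was lost without LPS+MIC-1 library 2 (Log2FC -0.84). Ccl6 rose with LPS by 1.78 (SE 0.55, adjusted p = 0.0194, limma) on those 8 libraries, and this call was lost without control library 1 or 3 or LPS library 1 or 3 (Log2FC 1.51 to 1.85). Against control with all 9 libraries, Ccl6 rose with LPS+MIC-1 by 1.93 (SE 0.53, adjusted p = 0.0329, limma), a call that was lost without control library 1 or 3 or LPS+MIC-1 library 1 or 3 (Log2FC 1.64 to 1.81).

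Ccl22, or MDC, was at 0.126, 0.0546 and 0.0775 FPKM in the controls, 9.42, 0.0824 and 9.58 with LPS, then 0.452, 0.302 and 0.683 with LPS+MIC-1. It was present at more than 1 FPKM in LPS libraries 1 and 3 alone, with an estimated 267 and 292 reads there against 2.49 to 6.20 in the controls and 3.73 in LPS library 2. Ccl22 passed the filter only through LPS libraries 1 and 3. A rise with LPS and a fall with LPS+MIC-1 were thus fixed in advance for this gene. With LPS library 2 left out, Ccl22 rose with LPS by 4.09 (SE 0.20, adjusted p = 2.22e-06, limma) and fell by 3.37 (SE 0.20, adjusted p = 7.86e-06, limma) between LPS and LPS+MIC-1. Over all 9 libraries the Log2FC were 2.73 and -2.003 and did not pass. Ccl22 and Ccl5 thus had, without LPS library 2, the 2 lowest ratios of means of LPS+MIC-1 to LPS, 0.0505 and 0.0152. Ccl24 was at 0.184, 0 and 0.189 FPKM in the controls, 0, 0 and 0.0597 with LPS and 0 in all LPS+MIC-1 libraries. No fold is given for it.

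The make-up of the CC chemokine transcripts in macrophages differed between treatments. Ccl5 made up 3.21 to 5.83% of the summed FPKM of the 10 genes in the controls, 50.9 and 52.1% in LPS libraries 1 and 3, 4.94% in LPS library 2 and 1.14 to 1.90% with LPS+MIC-1. Ccl3 was the largest share in the controls (46.5 to 47.6%) and with LPS+MIC-1 (58.1 to 63.0%), and the second, after Ccl5, in LPS libraries 1 and 3 (36.9 and 35.8%). Ccl2 made up 6.98 to 8.98% in the controls and 17.9 to 21.2% with LPS+MIC-1. Ccl4 went from 21.8 to 24.3% in the controls to 1.01 and 1.02% in LPS libraries 1 and 3 and 11.2 to 13% with LPS+MIC-1. These shares within a library do not depend on the scaling between libraries.

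**Figure D3:**
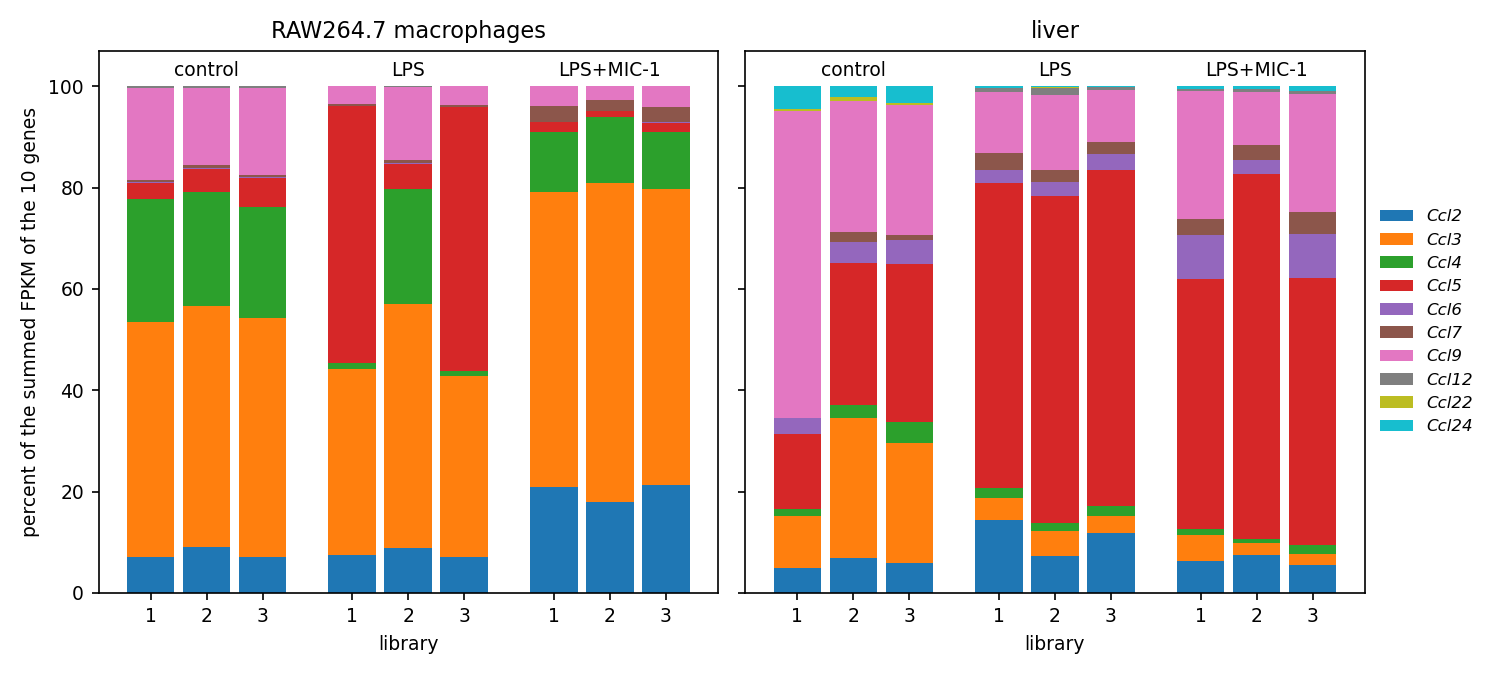
Share of each gene, in percent, of the summed FPKM of the 10 CC chemokine genes in every library of macrophages (left) and liver (right). Ccl5 (red) takes 50.9 and 52.1% in macrophage LPS libraries 1 and 3 and 49.4 to 72.1% in the treated livers.

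In liver the 10 genes made up a far smaller part of all FPKM, 0.00639 to 0.0107% in the controls, 0.0251 to 0.0307% with LPS and 0.0143 to 0.0293% with LPS+MIC-1. Both tables were normalised separately, so their levels stand side by side without a test. In control livers the order was Ccl9 (20.9 ± 7.41 FPKM, SD, n = 3), Ccl5 (15.1 ± 6.88), Ccl3 (12.8 ± 6.90), Ccl2 (3.53 ± 1.11), Ccl6 (2.41 ± 0.751), Ccl24 (1.89 ± 0.442), Ccl4 (1.64 ± 1.02), Ccl7 (0.688 ± 0.693) and Ccl22 (0.305 ± 0.194), with Ccl12 listed at 0 in all 3. The ranges of the 3 highest overlapped, as did those of Ccl2, Ccl6 and Ccl4 and those of Ccl6, Ccl24 and Ccl4. The range of Ccl7 overlapped those of Ccl4, Ccl24 and Ccl22, so the order of these lower genes is not clear. With LPS, Ccl5 was the highest in all 3 livers (150.3 ± 27.8), and with LPS+MIC-1 as well (124 ± 75.8).

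Between LPS and control, limma called 7 of the 9 tested chemokine genes in liver, where 24.6% of all 10147 genes were called. Of these 7, 6 rose (Ccl2, Ccl4, Ccl5, Ccl6, Ccl7 and Ccl12), against 13.4% of all genes called higher, and Ccl24 fell, against 11.2% called lower. The median Log2FC was 1.32 for the 9 and 0.15 for all genes. Between LPS+MIC-1 and control 5 rose (Ccl2, Ccl5, Ccl6, Ccl7 and Ccl12), where 25.2% of all genes were called, 13.8% higher and 11.5% lower. Ccl12 was at 0 in every control and passed the filter only through the treated livers. In both comparisons with control it could only rise, so it adds nothing to these counts. Between LPS+MIC-1 and LPS limma called 0 of the 9 chemokine genes and 0 of all 10147 genes (0%, 0% higher and 0% lower, smallest adjusted p = 0.0546). At an unadjusted p below 0.05 with the same fold, 1 of the 9 passed, Ccl2, and 0.986% of all genes. LPS library 2 was nearer to the LPS+MIC-1 livers than to its own group. Without it, 35 of all genes and 0 chemokine genes were called between LPS+MIC-1 and LPS. In bulk tissue, fewer cells of a type and less RNA per cell cannot be told apart.

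**Figure D4:**
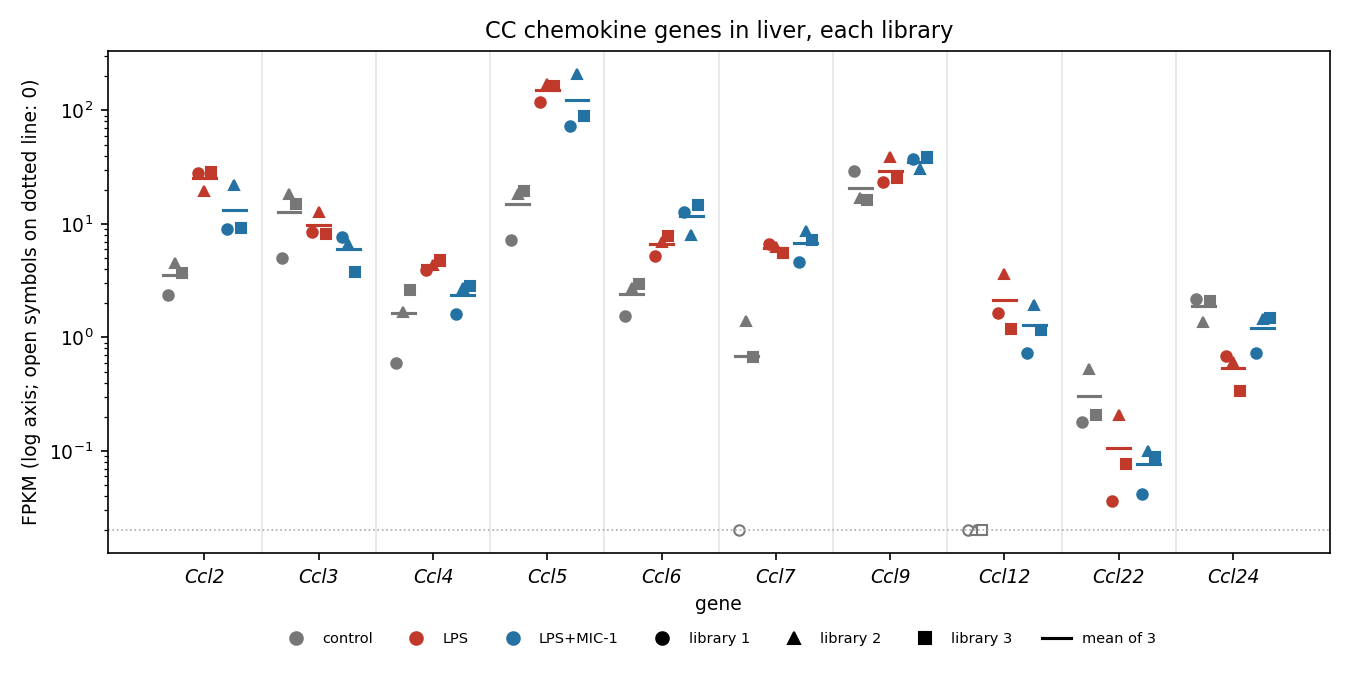
FPKM (log axis) of the 10 CC chemokine genes in the 9 liver libraries, with a symbol for each library and a bar for the mean of 3. Ccl5 and Ccl2 are above the controls in all treated livers, and LPS+MIC-1 library 2 (blue triangle) is above libraries 1 and 3 for both (211 FPKM of Ccl5 against 72.6 and 88.6).

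Ccl2 in liver was at 2.35, 4.56 and 3.67 FPKM in the controls, 28.1, 19.3 and 28.9 with LPS, then 9.10, 21.9 and 9.14 with LPS+MIC-1. LPS+MIC-1 libraries 1 and 3 lay between the controls and the LPS livers, and library 2 lay among the LPS livers. Ccl2 rose with LPS by 2.70 (SE 0.37, adjusted p = 0.00262, limma), 7.21 times the control mean, and with LPS+MIC-1 by 1.70 (SE 0.37, adjusted p = 0.0101, limma), 3.80 times. Its Log2FC for LPS+MIC-1 against LPS was -1.001 (95% interval -1.85 to -0.15, adjusted p = 0.997, limma), -1.18 without LPS library 2 and -1.41 without LPS+MIC-1 library 2, and none of these was past the threshold. Ccl7 was at 0, 1.38 and 0.678 FPKM in the controls, 6.67, 6.30 and 5.58 with LPS, then 4.60, 8.62 and 7.27 with LPS+MIC-1. It rose with LPS by 2.69 (SE 0.45, adjusted p = 0.00500, limma) and with LPS+MIC-1 by 2.78 (SE 0.45, adjusted p = 0.00373, limma), and between the treated groups its Log2FC was 0.09 (-0.93 to 1.12).

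Ccl12 in liver was listed at 0 in all 3 controls and was at 1.64, 3.64 and 1.19 FPKM with LPS, then 0.733, 1.94 and 1.16 with LPS+MIC-1. At the estimated depth of the controls, 3 reads would be 0.776 to 1.39 FPKM, 1.18 on average. The mean of Ccl12 was 1.83 times this average of the 3 controls with LPS and 1.09 times with LPS+MIC-1. The LPS+MIC-1 mean (1.28 FPKM) and LPS library 3 (1.19) were below the largest control value for 3 reads (1.39). LPS+MIC-1 library 1 (0.733) was below the smallest (0.776), so a rise with LPS+MIC-1 is not clear at this depth. Both differences from control were called (adjusted p = 0.00560 and 0.0117, limma). Estimated reads per library were 7.05 to 15.9 with LPS and 4.02 to 8.92 with LPS+MIC-1. Of the Ccr2 ligands, Ccl2 and Ccl7 thus rose with LPS in liver. Ccl12 was called higher too, but it passed the filter only through the treated livers and could only rise. None of Ccl2, Ccl7 and Ccl12 passed between LPS+MIC-1 and LPS.

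Ccl5 in liver was at 7.18, 18.4 and 19.7 FPKM in the controls, 118, 170 and 163 with LPS, then 72.6, 211 and 88.6 with LPS+MIC-1. No treated liver overlapped a control, and the highest and the lowest treated livers were both in the LPS+MIC-1 group. Ccl5 rose with LPS by 3.38 (SE 0.48, adjusted p = 0.00292, limma), 9.95 times the control mean, and with LPS+MIC-1 by 2.96 (SE 0.48, adjusted p = 0.00382, limma). Its Log2FC between LPS+MIC-1 and LPS was -0.42 (95% interval -1.51 to 0.67), and -0.88 without LPS+MIC-1 library 2 (adjusted p = 0.633, limma).

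Ccl3 was not called in any liver comparison of the 9 libraries. It was at 5.03, 18.3 and 15.01 FPKM in the controls, 8.58, 12.8 and 8.20 with LPS, then 7.73, 6.61 and 3.74 with LPS+MIC-1, so that control libraries 2 and 3 were the highest of the 9. The Log2FC of Ccl3 was -0.20 (-1.26 to 0.85) with LPS, and 0.14 without control library 2, and with LPS+MIC-1 it was -0.90, which became a call without control library 1 (-1.44). Ccl4 was at 0.598, 1.68 and 2.63 FPKM in the controls, 3.93, 4.35 and 4.84 with LPS, then 1.61, 2.70 and 2.84 with LPS+MIC-1. All LPS livers were above all controls and all LPS+MIC-1 livers, which overlapped each other. Ccl4 rose with LPS by 1.31 (SE 0.37, adjusted p = 0.0284, limma), a call that was lost without control library 1 or 2 or LPS library 1 or 3 (Log2FC 0.90 to 1.39). Its Log2FC of -0.78 for LPS+MIC-1 against LPS did not pass (-1.63 to 0.07).

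Ccl6 in liver was at 1.55, 2.74 and 2.94 FPKM in the controls, 5.25, 6.97 and 7.81 with LPS, then 12.6, 8 and 14.6 with LPS+MIC-1, and the 3 groups did not overlap. It rose by 1.32 (SE 0.29, adjusted p = 0.0119, limma) with LPS and by 2.07 (SE 0.29, adjusted p = 0.00244, limma) with LPS+MIC-1, the first being lost without LPS library 3 (1.21). The Log2FC of 0.75 between the treated groups did not pass (0.08 to 1.41, adjusted p = 0.997, limma). Ccl9, its neighbour, was at 29.4, 17.0 and 16.2 FPKM in the controls, 23.4, 39.1 and 25.3 with LPS, then 37.1, 30.4 and 38.8 with LPS+MIC-1. Control library 1 lay within the LPS range, and Ccl9 was not called, with a Log2FC of 0.79 against control with LPS+MIC-1 (SE 0.28, adjusted p = 0.0574, limma) that passed without control library 1 (1.06).

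Ccl24, the eotaxin gene, was the only one of the 9 that fell in liver. It was at 2.18, 1.38 and 2.10 FPKM in the controls, 0.686, 0.607 and 0.335 with LPS, then 0.730, 1.45 and 1.48 with LPS+MIC-1. The LPS livers were below all others. Ccl24 fell by 1.19 (SE 0.30, adjusted p = 0.0182, limma) with LPS, to 0.287 of the control mean, a call that was lost without control library 3 (-1.12) or LPS library 3 (-1.04) and with a pseudocount of 1 (-0.90). These are few reads, an estimated 5.96 to 13 in the LPS livers and 8.95 to 25.3 in the controls. Against LPS, its Log2FC with LPS+MIC-1 was 0.70 (0.02 to 1.39, adjusted p = 0.997, limma). Ccl22, which was not tested in liver, was at 0.179, 0.528 and 0.207 FPKM in the controls, 0.0360, 0.209 and 0.0767 with LPS, then 0.0418, 0.0996 and 0.0882 with LPS+MIC-1, from an estimated 1.25 to 6.24 reads.

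The FPKM ranges of LPS+MIC-1 and LPS livers did not overlap for 4 of the 9 tested genes, higher for Ccl6 and Ccl24 and lower for Ccl3 and Ccl4, against 9.75% of all genes in either direction, 5.10% higher and 4.64% lower. Markers of other cells moved across the same livers. Monocyte markers summed to 3.74 to 9.36 FPKM in the controls, 83.0 to 117 with LPS and 69.8 to 88.7 with LPS+MIC-1, and 3 of their 4 tested genes rose with LPS and 0 fell, where 13.4% of all genes were called higher and 11.2% lower. Neutrophil markers summed to 37.0 to 52.4 FPKM in the controls and 351 to 449 with LPS, and to 192, 463 and 205 in LPS+MIC-1 libraries 1, 2 and 3. Of the 7 tested, 6 rose with LPS and 1 fell, Cxcr2, which made up most of the control sum (26.5, 42.6 and 36.2 FPKM, against 7.19, 10.1 and 3.89 with LPS). Macrophage markers summed to 38.5 to 53.0 in the controls, to 630, 136 and 611 with LPS and to 132, 443 and 134 with LPS+MIC-1, of which Cd14 was 569, 84.2 and 552 FPKM, and 56.7, 407 and 61.4. Kupffer cell markers summed to 107.7 to 117.6 FPKM in the controls, to 95.7 to 116 with LPS and to 186, 95.5 and 187 in LPS+MIC-1 libraries 1, 2 and 3. C6, which was not called, held the largest share of the control sum (81.9, 61.3 and 52.3 FPKM). Of the 7 tested, 1 rose with LPS and 2 fell: Marco rose by 3.01 (SE 0.43, adjusted p = 0.00305, limma), while Clec4f fell by 2.11 (SE 0.38, adjusted p = 0.00619, limma) and Vsig4 fell by 1.47 (SE 0.33, adjusted p = 0.0125, limma). LPS+MIC-1 library 2, the liver with the most Ccl5, was the highest of its group in Cd14 and in the summed neutrophil markers. Its macrophage sum was mostly Cd14 (407 of 443 FPKM), and its Kupffer cell sum was the lowest of its group. The LPS group went the other way. There library 2 also had the most Ccl5 (170 FPKM against 118 and 163), but the least Cd14 (84.2) and the lowest neutrophil sum (351). Of the 6 macrophage markers tested, 2 rose with LPS (Cd14 and Itgam) and 1 fell (Mertk). The part of these cells in the chemokine levels was not tested.

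Of 13 other CC ligands listed for comparison, 7 were at 0 in every macrophage library and 1 was tested there. That was Ccl25, a ligand of Ccr9, at 0.237 to 1.65 FPKM, which rose with LPS+MIC-1 against LPS by 1.03 (SE 0.25, adjusted p = 0.00775, limma) without LPS library 2 only. In liver 6 were tested, and with LPS 2 rose and 2 fell, where 13.4% of all genes were called higher and 11.2% lower. The 3 with the largest Log2FC were Ccl27a, which fell by 3.00 (SE 0.82, adjusted p = 0.0241, limma), Ccl21b, which fell by 2.36 (SE 0.64, adjusted p = 0.0241), and Ccl8, also known as MCP-2, which rose by 1.78 (SE 0.56, adjusted p = 0.0401, limma). Ccl21b and Ccl27a have near-identical copies between which counting could split reads. Ccl27a was at 28.9, 116 and 91.6 FPKM in the controls, 3.44, 31.3 and 4.41 with LPS, then 14.0, 17.7 and 8.27 with LPS+MIC-1. Ccl8 was low, at 0, 0.479 and 0 FPKM in the controls, 2.09, 1.92 and 1.07 with LPS, then 0.194, 2.73 and 1.02 with LPS+MIC-1. Ccl8 passed the filter only through the treated livers, so its rise adds nothing to the count. Ccl19, a ligand of Ccr7, rose with LPS by 1.69 (SE 0.32, adjusted p = 0.00706, limma) and with LPS+MIC-1 against control by 1.32 (SE 0.32, adjusted p = 0.0147, limma), and 0 of the 6 were called between LPS+MIC-1 and LPS.

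Of 15 CC receptors and related receptors, 3 were tested in macrophages, Ccr1, Ccr2 and Ccrl2, a receptor-like protein that does not signal in the usual way. Ccr1, the receptor of Ccl3, Ccl5, Ccl6 and Ccl9, was at 1.03, 3.00 and 1.34 FPKM in the controls, 5.43, 3.01 and 5.88 with LPS, then 65.7, 40.8 and 69.8 with LPS+MIC-1. It rose with LPS+MIC-1 against LPS by 3.50 (SE 0.37, adjusted p = 0.00123, limma) over all 9 libraries and by 3.23 (SE 0.36, adjusted p = 0.000138, limma) without LPS library 2. Ccr2 rose in the same comparison by 1.21 (SE 0.28, adjusted p = 0.0207, limma) and 1.46 (SE 0.22, adjusted p = 0.000581, limma), from 0.925, 1.93 and 0.947 FPKM with LPS to 4.31, 2.39 and 3.99. Ccrl2 was at 2.53, 4.67 and 2.07 in the controls, 61.3, 4.22 and 56.9 with LPS, then 4.20, 1.22 and 6.04 with LPS+MIC-1, and fell by 3.99 (SE 0.54, adjusted p = 0.000360, limma) between LPS and LPS+MIC-1 without LPS library 2.

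**Figure D5:**
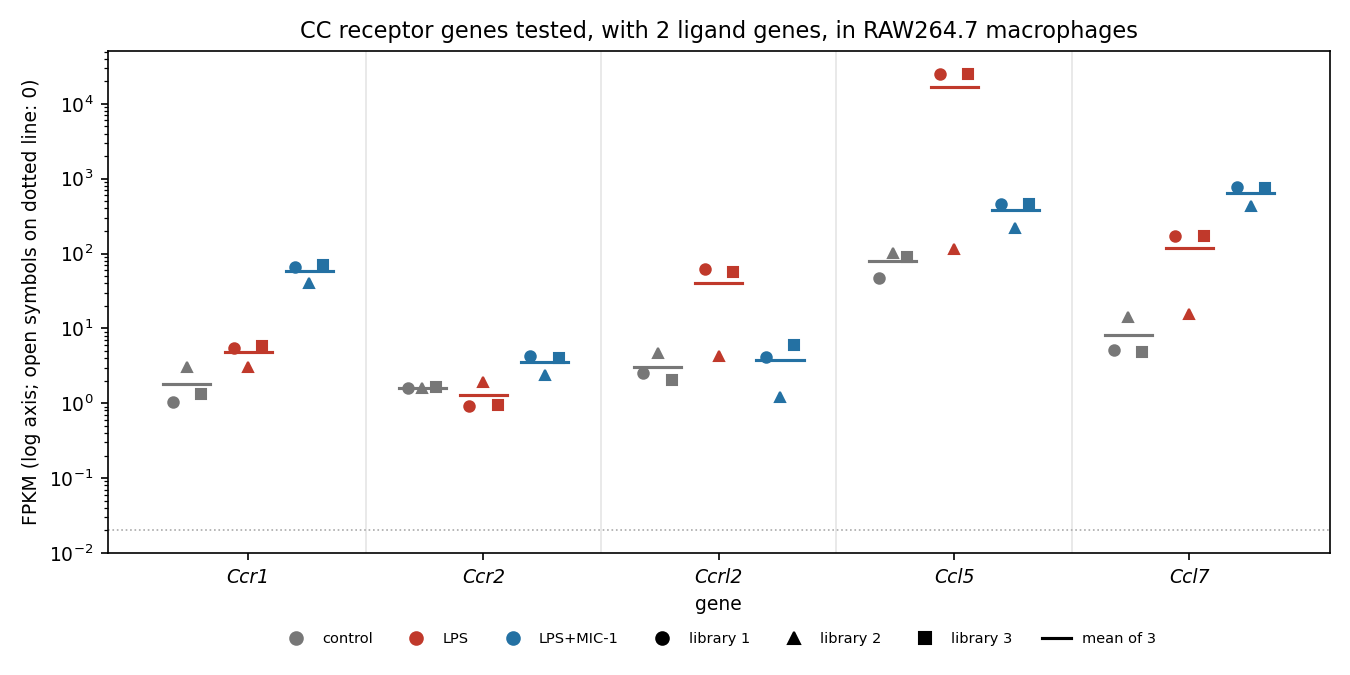
FPKM (log axis) of the 3 CC receptor genes tested in macrophages beside the ligand genes Ccl5 and Ccl7, with a symbol for each library and a bar for the mean of 3. Ccr1 is highest with LPS+MIC-1 (40.8 to 69.8 FPKM), and Ccrl2 is highest in LPS libraries 1 and 3 (61.3 and 56.9 FPKM).

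In liver only Darc, a receptor that binds chemokines without signalling, was tested of these 15, and it rose with LPS by 1.13 (SE 0.34, adjusted p = 0.0348, limma). Ccr1 had 0.0366 to 0.257 FPKM in the controls and 0.647 to 1.36 in the treated livers. Of 22 genes of LPS sensing and NF-κB signalling, 21 were tested in macrophages. With LPS+MIC-1 against LPS, 2 rose and 0 fell over all 9 libraries (Tlr4 by 2.04 and Nfkbiz by 1.44, adjusted p = 0.0489 and 0.00742, limma), where 4.12% of all genes were called higher and 4.19% lower. Without LPS library 2, 3 rose and 1 fell, against 11.9% and 12.5% of all genes. Tlr4, the LPS receptor, was at 9.34 to 10.3 FPKM in the controls, at 1.11, 10.1 and 1.48 with LPS and at 12.2 to 13.4 with LPS+MIC-1. Nfkbiz, an atypical IκB protein, was at 10.5 to 17.2, at 16.4 to 22.4 and at 41.3 to 63.7. In liver 17 were tested, 6 rose and 1 fell with LPS (13.4% and 11.2% of all genes did), with Cd14 (5.38), Tnfaip3 (2.83) and Lbp (2.73) the largest, and 0 were called between LPS+MIC-1 and LPS. Among marker lists in macrophages, neutrophil markers summed to 3.21 to 5.29 FPKM in the controls, 33.6, 5.56 and 43.9 with LPS and 691 to 757 with LPS+MIC-1. These were mostly S100a8 and Mmp8, which rose with LPS+MIC-1 against LPS by 5.33 (SE 0.74, adjusted p = 0.00340, limma) and 4.38 (SE 0.45, adjusted p = 0.00107).

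For the 2 genes with the highest mean FPKM in each table, the genes most alike in log2(FPKM + 0.5) over the 9 libraries were looked up, as a description over libraries that fall into separate treatments. In macrophages Ccl3 was most like Nucb1 (r = 0.998) and Ubap1 (r = 0.998), and Ccl5 most like Golph3l (r = 0.999). In liver Ccl5 was most like Fbxw9 (r = 0.995) and Ncf1 (r = 0.990), and Ccl9 most like Arl3 (r = 0.984) and Apoh (r = 0.978). The genes most like Ccl3 and Ccl5 had smaller ranges than these. Golph3l was at 19.7 to 22.5 FPKM in the controls and LPS library 2 and at 48.3 and 48.4 in LPS libraries 3 and 1. Those most like Ccl9 did not, as Arl3 was at 7.61 FPKM in control library 3 and 31.8 in LPS+MIC-1 library 3 of liver. Ccl9 itself was at 16.2 and 38.8 FPKM there.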

How the data were processed

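RAW264.7 macrophages and mouse liver were profiled by RNA-seq, with 9 libraries in each of 2 tables. Per the labels and methods, the authors quantified transcripts with kallisto (version 0.45.0), imported them with tximport and deposited FPKM from DESeq2 (version 1.20.0), and their build was mm9 with RefSeq genes. The deposited comparison tables (mean normalised count, fold change, standard error, Wald statistic and p-values) hold the study's own tests and were not used.

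Treatments were taken from the labels. Macrophage columns carry no replicate number, nor do the liver columns, and nothing in the sources says that the macrophage libraries came from separate cultures, so p-values there measure the spread between these samples, which may be technical. Tested were genes whose FPKM averaged more than 1 in a table (9905 in macrophages and 10147 in liver) on log2(FPKM + 0.5) with limma (version 3.58.1 in R 4.3.3), with all 3 treatments in the fit, a mean-variance trend and Benjamini-Hochberg adjustment over all tested genes. The fit was tested on simulated data. Depth was estimated from the steps of low FPKM values, of which 74.0 to 77.5% were whole multiples within 0.1 of a read, assuming fragments of 160 bases, and estimated reads cover counting error only. Alternatives were pseudocounts of 0.1 and 1, no filter, 2 other scalings, adjusted p below 0.01, fits of 2 treatments and leaving out each library. Averaging libraries 1 and 3, and the set of 8 macrophage libraries, were chosen after seeing the data. Named beside the 10 genes are up to 3 called genes with the largest Log2FC of each list and comparison, and for the 2 genes with the highest mean FPKM in a table the 2 most correlated genes, of which 1 is not reported here. Genes and lists were chosen with earlier results of these data known. Other symbols named for context were chosen after their values were seen.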

Additional observations from a re-analysis of the deposited data

Results flagged for a closer look

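For Ccl4, the libraries of LPS+MIC-1 and LPS lay in opposite order in macrophages and liver. Its Log2FC was 2.43 in macrophages, where every LPS+MIC-1 library was above every LPS library and the difference was called. In liver it was -0.78, with every LPS+MIC-1 library below every LPS library, and this was not called (95% interval -1.63 to 0.07, adjusted p = 0.997, limma). For Ccl22 the libraries of LPS+MIC-1 and control lay in opposite order. Its Log2FC was 0.72 over all 9 macrophage libraries, not called (-1.53 to 2.98, adjusted p = 0.620, limma), with all 3 LPS+MIC-1 libraries above all 3 controls. In liver the difference was -0.46, with all 3 below, and Ccl22 was not tested there since its mean FPKM was under 1. The liver values of Ccl22 rest on an estimated 1.25 to 6.24 reads per library. The difference between macrophages and liver was not tested in either gene, since the tables were normalised separately.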

How the results depend on the processing

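Estimated reads were few in liver for Ccl12, Ccl22 and Ccl24, with at most 25.3 in any library, and in the controls for Ccl4 (3.07 to 7.71) and Ccl7 (0 to 5.10). No paired analysis was possible because the columns carry no replicate number. The cause of the changes given here was not tested. Of the values for single genes under the alternatives, 1201 kept direction and side of the threshold, 60 lost a call, 21 gained a call and 14 changed sign.

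In macrophages with all 9 libraries, LPS+MIC-1 against LPS gave 1 called chemokine gene with no filter, 383 genes and 1 chemokine gene at an adjusted p below 0.01, and 381 genes and 1 chemokine gene with only both compared groups in the limma fit. LPS+MIC-1 against control gave 554 genes and 3 chemokine genes at 0.01. With libraries 1 and 3 averaged, chosen after seeing the data, both comparisons gave 0 genes and 0 chemokine genes. Without LPS library 2, rescaling to the same sum gave 3965 genes for LPS+MIC-1 against LPS. In liver, LPS against control gave 1102 genes and 4 chemokine genes at 0.01, and LPS+MIC-1 against control 1370 genes and 3 chemokine genes. LPS+MIC-1 against LPS gave 1 gene with a pseudocount of 1 and 2 genes with no filter, none of them a chemokine gene.

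Leaving out 1 library at a time gave 0 to 3515 genes and 0 to 8 chemokine genes for LPS against control in macrophages, the highest without LPS library 2. For LPS+MIC-1 against LPS it gave 445 to 2423 genes and 1 to 6 chemokine genes, and for LPS+MIC-1 against control 558 to 1624 genes and 3 to 7. In liver it gave 1227 genes and 4 chemokine genes (without LPS library 3) to 3510 genes and 7 for LPS against control, 0 to 35 genes for LPS+MIC-1 against LPS (35 without LPS library 2) and 1749 to 3111 genes for LPS+MIC-1 against control. Where LPS library 2 and a further LPS library were left out, the lone LPS sample was assumed to vary like the other groups.

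Signs changed only for values that had not been called. Rescaled to the same sum, Ccl4 had -0.32 with all 9 libraries and -0.66 without LPS library 2 for LPS against control. For LPS+MIC-1 against LPS the same scaling gave 0.15 for Ccl9 with all 9, 0.42 for Ccl3 without LPS library 2 and -0.17 for Ccl7 in liver. With 1 library left out, LPS+MIC-1 against LPS ranged from -0.39 to 1.61 for Ccl3 and from -1.14 to 0.070 for Ccl9 with all 9 libraries, and from -0.14 to 0.68 for Ccl6 without LPS library 2. Ccl12 for LPS+MIC-1 against control ranged from -0.59 to 0.0033 in both sets, Ccl3 in liver for LPS against control from -0.75 to 0.14 and Ccl7 in liver for LPS+MIC-1 against LPS from -0.083 to 0.34.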
